A study of Mus musculus with 3 samples.

Results

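Globin messages were counted in single cells of embryonic mouse thymic lobes, both in the red blood cells collected with the tissue and, at low levels, in its other cells. The 7 genes described here are 3 that encode embryonic chains, Hba-x, Hbb-y and Hbb-bh1, and 4 that encode adult chains, Hba-a1, Hba-a2, Hbb-bs and Hbb-bt, out of 27998 genes in the count tables. They were named as a gene family, not chosen by their values. Cells were called globin-rich when at least 50% of their unique molecular identifiers (UMIs, each marking 1 captured RNA molecule) lay on Hba- or Hbb- genes, and 3195 of 24616 cell barcodes met that rule.

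The study compared thymic lobes of C57BL/6 embryos at E13 to E13.5, dissociated with trypsin, from a model of 22q11.2 deletion syndrome with those of a control. There was 1 droplet library with 3′ counting per genotype, which were wild type (the control, written Tbx1+/+ in the study), Tbx1neo2/neo2 and Foxn11089/1089. Tbx1neo2 is a hypomorphic allele with a neomycin cassette in an intron of Tbx1, and Foxn1 1089 carries a small deletion in the coding sequence of Foxn1, the transcription factor of thymic epithelium. The alleles are germline, no treatment was given, and the number, sex and litter of the embryos pooled per library are not given in the sources used here. The targeted genes were counted first. Tbx1 had 116 UMIs in the control library (1.40 counts per 1000000 UMIs, CPM), 668 in the library labelled Tbx1neo2/neo2 (4.86 CPM) and 1106 in the Foxn11089/1089 library (5.40 CPM). Its level was thus not lower under the second label than in the control. The study states that the embryonic thymus does not express Tbx1, and the 2 libraries without that label differed from each other. This count therefore cannot check the label. A 3′ count lies outside the Foxn1 deletion and checks nothing, and Foxn1 UMIs were present in all 3 libraries. With 1 library per genotype no genotype was tested against another, and embryonic age, litter and dissection cannot be told apart from genotype. The libraries held 6410, 5759 and 12447 cells and 82936619, 137498422 and 204655055 UMIs, in the order control, Tbx1neo2/neo2, Foxn11089/1089, which is kept for every triplet of values. Intervals in brackets are exact 95% intervals and cover counting error only.

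Hemoglobin is built from a pair of α-type and a pair of β-type chains, each chain holding a heme group. The first red cells of the mouse embryo, called primitive, arise in the yolk sac and enter the circulation as nucleated cells, while definitive red cells arise later in the fetal liver. Primitive cells use Hbb-y and Hbb-bh1 for β-type chains and Hba-x together with Hba-a1 and Hba-a2 for α-type chains. Definitive cells use Hba-a1, Hba-a2, Hbb-bs and Hbb-bt, so the adult α-type genes are used by both lineages and the β-type genes separate them. Both lineages circulate together in mid-gestation, and as primitive cells mature their β-type messages move from Hbb-bh1 to Hbb-y.

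The genes sit in 2 clusters on GRCm38. The α-type cluster lies on the plus strand of chromosome 11, with Hba-x from 32276400 to 32278116, Hba-a1 from 32283511 to 32284465 and Hba-a2 from 32296489 to 32297298. The β-type cluster lies on the minus strand of chromosome 7, so that its order of transcription runs from Hbb-y (103851749 to 103853216) through Hbb-bh1 (103841637 to 103843164) and Hbb-bs (103826534 to 103828096) to Hbb-bt (103812524 to 103813996). The 150 bases before the RefSeq start of 5 members (GRCm38.p6) are given here because these genes were used together or apart in the same cells. Capitals mark 3 short motifs known from globin promoters, read on the strand of the gene. They are the CACCC box, the CCAAT box and the TATA box in the letters TATAA.
Hbb-y, chr7:103853208-103853357, minus strand: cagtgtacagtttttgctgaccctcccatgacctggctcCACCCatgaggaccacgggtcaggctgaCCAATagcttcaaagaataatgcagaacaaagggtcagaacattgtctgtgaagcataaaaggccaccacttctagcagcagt
Hbb-bs, chr7:103827929-103828078, minus strand: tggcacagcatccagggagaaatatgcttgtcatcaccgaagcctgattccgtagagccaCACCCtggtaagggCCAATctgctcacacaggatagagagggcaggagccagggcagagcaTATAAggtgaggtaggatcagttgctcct
Hbb-bt, chr7:103813924-103814073, minus strand: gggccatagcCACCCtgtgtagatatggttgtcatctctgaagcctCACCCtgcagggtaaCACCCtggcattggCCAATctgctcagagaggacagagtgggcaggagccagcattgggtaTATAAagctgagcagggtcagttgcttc
Hba-x, chr11:32276450-32276599, plus strand: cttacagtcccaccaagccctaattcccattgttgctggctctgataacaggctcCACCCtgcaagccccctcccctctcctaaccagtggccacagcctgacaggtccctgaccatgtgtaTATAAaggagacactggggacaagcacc
Hba-a2, chr11:32296342-32296491, plus strand: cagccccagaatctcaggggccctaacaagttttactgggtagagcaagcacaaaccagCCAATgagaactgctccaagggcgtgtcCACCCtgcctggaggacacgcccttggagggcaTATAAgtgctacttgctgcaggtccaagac

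All 5 windows held a CACCC on the gene's strand, and that of Hbb-bt held 3. CCAAT was present in 4 of them and absent from that of Hba-x, and TATAA was present in 4 and absent from that of Hbb-y. These letters are common. With each motif searched on its own on both strands, CACCC occurred in 37.4% of 32851 promoter windows of the same length, CCAAT occurred in 24.5% and TATAA in 14.2%, and a match is a description of sequence, not of binding. The windows of Hba-a1 and Hba-a2 were identical over their 147 shared bases, and those of Hbb-bs and Hbb-bt matched at 111 of 151 aligned positions (73.5%). No window was at hand for Hbb-bh1.

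The transcripts of some members are nearly the same, which bears on how reads were shared out. Hba-a1 and Hba-a2 agreed at 537 of 538 aligned bases (99.8%), and Hbb-bs and Hbb-bt at 582 of 630 (92.4%). Over the last 300 bases, which 3′ libraries read, 121 of the 211 windows of 90 bases in Hba-a1 also occurred in Hba-a2, and 52 of 211 in Hbb-bs also occurred in Hbb-bt. Hbb-y shared no such window with Hbb-bh1 or Hbb-bs. The split between Hba-a1 and Hba-a2 and between Hbb-bs and Hbb-bt is therefore uncertain, while that between Hbb-y and Hbb-bs is not touched by shared windows. Other pairs of an embryonic and an adult β-type gene were not compared.

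The 7 genes took 4.67%, 4.65% and 13.8% of all UMIs in the 3 libraries. Of those UMIs 95.8%, 96.1% and 87.9% lay in globin-rich cells, which numbered 528 (8.24%, 7.58 to 8.94), 384 (6.67%, 6.04 to 7.34) and 2283 (18.3%, 17.7 to 19.0). The Foxn11089/1089 library thus had the largest share of globin-rich cells, and its interval did not overlap the other two. In that library 404 of 12447 cells lay between 10% and 50% globin, against 46 of 6410 and 19 of 5759 in the others. Some globin-rich cells carried UMIs of 2 or more markers of an epithelial, mesenchymal, endothelial or hematopoietic cell. These were 13 of 528, 63 of 384 and 200 of 2283, as a share highest in the library labelled Tbx1neo2/neo2. The 5 cells nearest the limit on each side ran from 50.7% to 53.5% inside and 48.5% to 49.9% outside it in the control library. The same ranges were 50.6% to 54.9% and 33.1% to 45.7% in the library labelled Tbx1neo2/neo2, and 50.01% to 50.7% and 49.3% to 49.8% in the Foxn11089/1089 library. By pair of libraries, 17, 18 and 28 barcode sequences occurred in 2 libraries, and none of them was globin-rich in both. Shared barcodes that were globin-rich in only 1 library were not counted.

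The β-type genes split globin-rich cells into 2 classes. A cell was called embryonic-high when at least 50% of its β-type UMIs were Hbb-y and Hbb-bh1 and adult-high when at most 10% were. By these limits 230, 122 and 990 cells were embryonic-high, 295, 262 and 1283 were adult-high, and 3, 0 and 10 lay between. Embryonic-high cells made up 43.6% (39.3 to 47.9), 31.8% (27.1 to 36.7) and 43.4% (41.3 to 45.4) of globin-rich cells, lowest in the library labelled Tbx1neo2/neo2. The limits fixed the β-type shares of the classes, which are given as description, while the α-type genes and all other genes did not enter them.

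**Figure D1:**
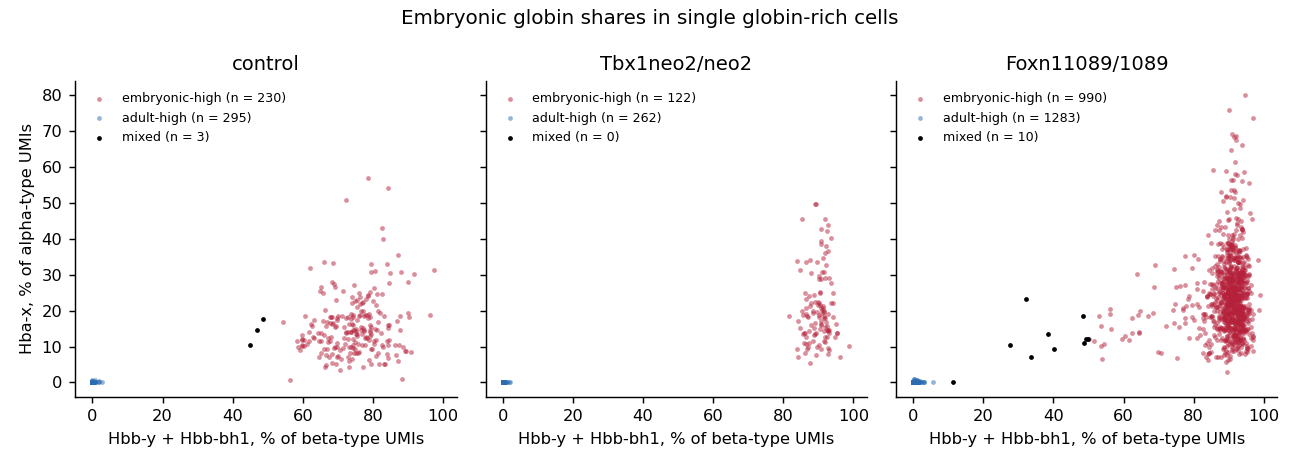
Each point is 1 globin-rich cell, with the percentage of its β-type UMIs on Hbb-y and Hbb-bh1 on the horizontal axis and the percentage of its α-type UMIs on Hba-x on the vertical axis, 1 panel per library. Adult-high cells sit at the origin on both axes, and the embryonic-high cells of the control library lie farther left, with a median of 74.9%, than those of the other libraries, with medians of 90.4% and 91.1%.

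Hba-x, the embryonic α-type gene, followed the β-type split although it had no part in it. Every embryonic-high cell had Hba-x UMIs, with 8 to 3569 per cell and a median of 343 in the control library, 37 to 5644 and a median of 924 in the library labelled Tbx1neo2/neo2, and 18 to 4329 and a median of 895.5 in the Foxn11089/1089 library. Among adult-high cells the median was 0 in each library and the highest cell had 12, 8 and 13 UMIs. Of the adult-high cells, 254 of 295, 237 of 262 and 727 of 1283 had none. The highest adult-high cell lay above the lowest embryonic-high cell only in the control library, by raw UMIs. As a share of α-type UMIs, summed over embryonic-high cells, Hba-x made up 16.0%, 20.4% and 24.7%, so most of the α-type message in these cells came from Hba-a1 and Hba-a2.

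Hbb-y, the main embryonic β-type gene at this age, was the leading globin of embryonic-high cells. It had a median of 1549 UMIs per cell (130 to 8184) in the control library, 12405 (114 to 32366) in the library labelled Tbx1neo2/neo2 and 8806.5 (225 to 20871) in the Foxn11089/1089 library. In those cells it made up 33.8%, 62.7% and 63.0% of the UMIs of the 7 genes. In adult-high cells the medians were 0, 1 and 6 UMIs. The low Hbb-y count of adult-high cells in the Foxn11089/1089 library, 0.0777% of their globin UMIs against 0.00700% and 0.0123%, came with a higher Hbb-y level in the other cells of that library, of 547 CPM against 51.6 and 49.7 in epithelial cells, whose part was not tested.

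Hbb-bh1, which precedes Hbb-y in primitive cells, was scarce in both classes. It took 0.336%, 0.263% and 0.251% of the globin UMIs of embryonic-high cells, so that Hbb-y exceeded it 100.7, 238 and 251 times, and 39, 9 and 98 of these cells had no Hbb-bh1 UMI. Its medians were 7, 16.5 and 15.5 UMIs per cell. Cells with a larger Hbb-bh1 share also had a larger Hba-x share, with Spearman's rho of 0.424 over 230 cells, 0.473 over 122 and 0.383 over 990, as a description across cells of 1 library whose shares add up to a fixed total. In adult-high cells Hbb-bh1 was unevenly spread, with 273, 234 and 1136 cells at 0 and single cells of up to 105, 255 and 360 UMIs. There it was more abundant than Hbb-y in the control library and the library labelled Tbx1neo2/neo2, with Hbb-y to Hbb-bh1 ratios of 0.316 and 0.551, and less abundant in the Foxn11089/1089 library, with a ratio of 3.36.

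Hba-a1 and Hba-a2, the adult α-type genes, were present in every globin-rich cell of both classes. In adult-high cells Hba-a1 took 15.9%, 16.0% and 16.2% of globin UMIs and Hba-a2 took 12.8%, 12.9% and 13.4%, nearly the same in the 3 libraries. In embryonic-high cells the values spread out, with 28.1%, 15.3% and 14.2% for Hba-a1 and 16.2%, 8.43% and 7.94% for Hba-a2, highest in the control library. The Hba-a1 to Hba-a2 ratio was 1.73, 1.82 and 1.78 in embryonic-high cells and 1.24, 1.24 and 1.21 in adult-high cells, with the reservation on their shared sequence.

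Hbb-bs and Hbb-bt, the adult β-type genes, changed places between the classes. In adult-high cells Hbb-bs was ahead, at 45.5%, 48.8% and 49.1% of globin UMIs against 25.8%, 22.3% and 21.1% for Hbb-bt. Hbb-bt exceeded Hbb-bs in 1 of 295, 0 of 262 and 0 of 1283 adult-high cells. In embryonic-high cells the order was turned or even, with 8.34%, 4.38% and 3.63% for Hbb-bt against 4.74%, 2.82% and 3.71% for Hbb-bs. There Hbb-bt exceeded Hbb-bs in 176 of 230 cells (76.5%), 90 of 122 (73.8%) and 554 of 990 (56.0%). The summed Hbb-bt to Hbb-bs ratio was 1.76, 1.55 and 0.978 in embryonic-high cells against 0.569, 0.457 and 0.430 in adult-high cells of the same libraries. The part of reads that the 2 genes share was not tested.

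**Figure D2:**
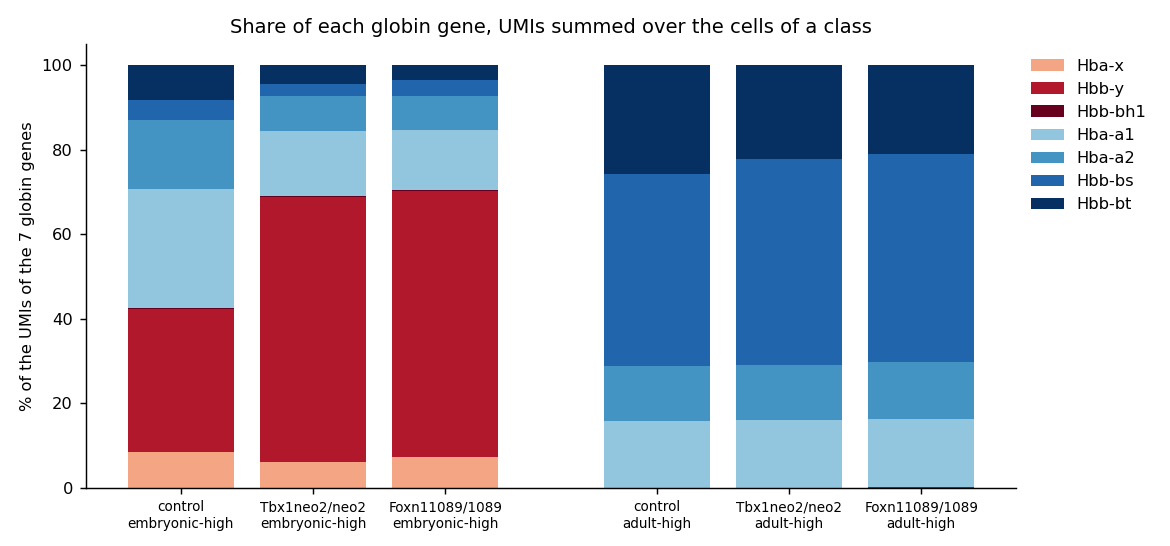
Stacked bars give each gene's percentage of the UMIs of the 7 globin genes, summed over the embryonic-high (left) and adult-high (right) cells of each library. The 3 adult-high bars are alike, and among embryonic-high bars the control stands apart with 33.8% Hbb-y against 62.7% and 63.0%.

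The embryonic to adult ratio per cell, Hba-x, Hbb-y and Hbb-bh1 over the 4 adult genes, differed between the 2 classes largely by construction, since these were defined on Hbb-y and Hbb-bh1. Embryonic-high cells had a median ratio of 0.765 (quartiles 0.620 and 0.951) in the control library, 2.18 (1.92 and 2.56) in the library labelled Tbx1neo2/neo2 and 2.51 (2.20 and 2.85) in the Foxn11089/1089 library. Their extremes were 0.333 to 2.14, 0.969 to 3.84 and 0.672 to 7.64. Adult-high cells had medians of 4.8e-05, 7.2e-05 and 0.00081 and highest values of 0.0138, 0.0125 and 0.0385, and 141, 82 and 11 of them had no embryonic UMI at all. The cells of neither class had ratios of 0.369 to 0.456 in the control library (3 cells) and of 0.0986 to 0.651 in the Foxn11089/1089 library (10 cells). Over all globin-rich cells together the embryonic genes took 14.2%, 24.9% and 39.1% of the UMIs of the 7 genes, a sum that follows the size and the number of the cells of each class. Counting each cell equally gave 19.6%, 21.7% and 30.9%.

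Embryonic-high cells of the control library differed in make-up from those of the other libraries. The ratio of α-type to β-type UMIs was 1.12 there against 0.425 and 0.416, while the adult-high cells of the same 3 libraries had 0.402, 0.406 and 0.421. Per 100 UMIs of non-globin genes these cells held 165, 338 and 381 of Hbb-y and 137, 82.6 and 85.8 of Hba-a1, so in the control library the first was lower and the second higher on a scale that does not depend on the other globins. Hba-x stood at 41.0, 32.7 and 44.0 on that scale, with the control between the others. The embryonic-high cells of the control library were also shallower, with a median of 5608.5 UMIs per cell against 23290 and 16036.5.

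The lower Hbb-y share of the control library was present at matched depth from 2000 UMIs up. Among embryonic-high cells of 5000 to 10000 UMIs the median Hbb-y share of globin UMIs was 33.7% (quartiles 30.6% and 35.5%, 94 cells) in the control library, 58.0% (55.4% and 59.6%, 9 cells) in the library labelled Tbx1neo2/neo2 and 64.9% (59.5% and 68.9%, 95 cells) in the Foxn11089/1089 library. Between 10000 and 20000 UMIs the medians were 34.2% (26 cells), 64.8% (23 cells) and 64.4% (639 cells). Below 2000 UMIs the library labelled Tbx1neo2/neo2 had only 4 cells, whose median of 38.4% lay below the 44.9% of 40 control cells. The quartiles of the control library and of the others did not overlap in any range above 2000 UMIs. With 1 library each this is a difference between libraries that has no replicate check.

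**Figure D3:**
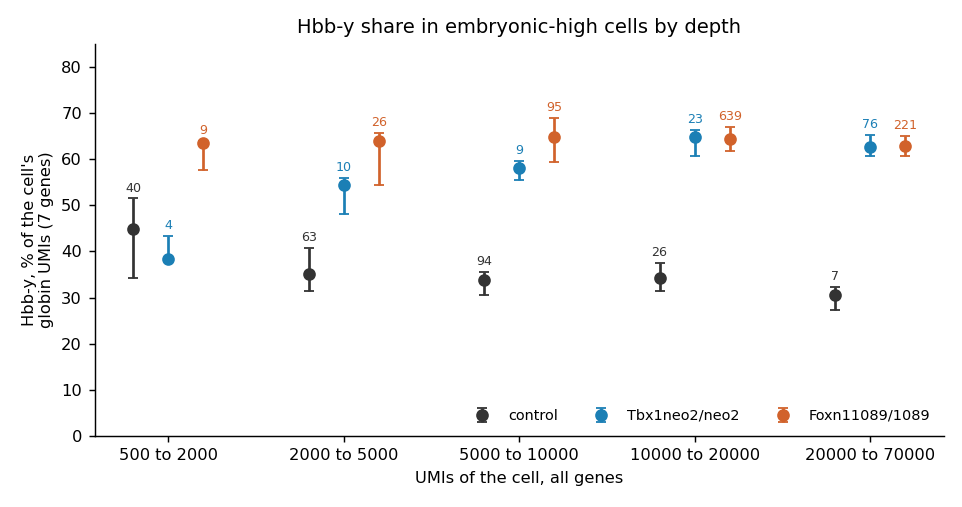
Points are medians over embryonic-high cells of the Hbb-y percentage of the cell's globin UMIs, bars run from the lower to the upper quartile, numbers give the cells, and the horizontal axis bins cells by their UMIs of all genes. From 2000 UMIs up the control medians stay between 30.5% and 35.1%, below those of the other libraries.

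Within embryonic-high cells the α-type and the β-type embryonic share were nearly unrelated. Spearman's rho between the Hba-x share of α-type UMIs and the Hbb-y plus Hbb-bh1 share of β-type UMIs was 0.147, 0.0456 and 0.0394 over 230, 122 and 990 cells, as a description. In the control library cells with more UMIs had a smaller embryonic β-type share (rho of −0.476), a relation that was weaker in the others (−0.0943 and −0.141). The remaining globin genes were near absent. Hbb-bh2, a minor gene of the β-type cluster, had 3, 4 and 30 UMIs in embryonic-high cells and 0 in adult-high cells. The θ-type genes Hbq1a and Hbq1b had 70, 72 and 554 and 84, 136 and 824 UMIs in embryonic-high cells, against 43, 113 and 320 and 34, 78 and 139 in adult-high cells.

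Genes outside the globin families were then compared between embryonic-high and adult-high cells, to ask what else separates cells sorted by their β-type globin. UMIs were summed per class and library, the 7 members and the other Hba-, Hbb- and Hbq genes were left out, and the 3 libraries served as the replicates of a contrast made within each of them. In edgeR's quasi-likelihood test with the library as a block, 1575 of 3134 genes (50.3%) had a Benjamini-Hochberg adjusted p under 0.05, of which 758 (24.2%) were higher and 817 (26.1%) lower in embryonic-high cells. The balance of directions depended on the processing, with 860 higher and 656 lower without TMM scaling, 1031 and 574 without the filter on low counts, and 989 and 714, 822 and 582, and 599 and 436 without the control, Tbx1neo2/neo2 and Foxn11089/1089 library. At an unadjusted p under 0.05 there were 1739, and DESeq2 called 1056. The median log2 fold change of all genes was −0.17 with the scaling used and 0.01 without it. At that background, a gene that passed is not thereby particular.

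Mitochondrial messages also separated the classes, at 11666 against 31039 CPM of non-globin UMIs in the control library, 35287 against 93762 and 22876 against 75952 in the others, lower in embryonic-high cells each time. The 7 red cell markers other than globin were all present in both classes, at 4284 to 6033 CPM in embryonic-high and 19790.5 to 26610 in adult-high cells. Markers of other cell types were far below the level of their own cells. The 6 epithelial markers summed to between 109 and 730 CPM in embryonic-high and between 224 and 684 in adult-high cells, against 2868 to 4860 in cells of epithelial type. The 8 hematopoietic markers summed to between 29.2 and 502 CPM over both classes, the latter in adult-high cells of the control library, against 2724 to 2911 in hematopoietic cells. The 6 mesenchymal markers summed to between 195 and 671 CPM and the 6 endothelial ones to between 14.7 and 38.9, with 4 of the 6 at 0 in both classes of the control library. Without the cells that carried 2 or more such markers, a choice made after seeing the data, 1498 genes were called. The part of mitochondrial RNA in the contrast was not tested.

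Genes of heme synthesis and iron supply were mostly lower in embryonic-high cells. Of 14 tested in a list of 15, 8 were lower, 3 higher and 3 not called, with a median log2 fold change of −0.75. Over all genes tested 26.1% were lower and 24.2% higher. Alas2, the first enzyme of heme synthesis in red cells, had 907 UMIs in embryonic-high and 3047 in adult-high cells of the control library, 1597 and 7951 in the library labelled Tbx1neo2/neo2 and 6551 and 16684 in the Foxn11089/1089 library. It was lower in all 3 libraries, by a log2 fold change of −2.22 (SE 0.13, edgeR adjusted p = 4.4e-15). Fech, which places iron into the heme ring, stood at −2.26, Urod at −2.32 and Slc25a37, the carrier of iron into mitochondria, at −3.20. Against that direction went Fth1, the heavy chain of the iron store ferritin, at 1.09 (SE 0.12), with 24730 against 9799, 35451 against 17967 and 253862 against 55615 UMIs. Uros, another enzyme of the pathway, and Slc25a38, a mitochondrial glycine carrier, were also higher, at 1.14 and 1.79. The transferrin receptor Tfrc was not called (−0.13), and its ratios took both signs over the libraries.

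Membrane genes of red cells were mostly lower too. Of 12 tested in 13, 8 were lower, 3 higher and 1 not called, with a median of −1.16. The shares over all genes tested were 26.1% lower and 24.2% higher. Slc2a1, a glucose transporter, had 6 against 31, 6 against 367 and 40 against 299 UMIs, a log2 fold change of −4.29 (SE 0.29, edgeR adjusted p = 1.2e-13). Epb41, which ties spectrin to the membrane, was lower by less (−1.85). The 3 that rose were Ermap at 1.59, Kel at 0.75 and Epb42 at 0.51, the first 2 carrying blood group antigens and the last binding band 3. Slc4a1, which encodes band 3 itself, was called lower at −0.58, but was at −0.31 and not called without the library labelled Tbx1neo2/neo2.

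Regulators of red cell development divided evenly. Of 9 tested in 10, 3 were higher, 3 lower and 3 not called, with a median of 0.31. Over all genes tested 24.2% were higher and 26.1% lower, so an even division is not particular to this list. Tal1, a core factor of blood and red cell formation, had 181 against 2, 354 against 21 and 1500 against 21 UMIs, a log2 fold change of 4.82 (SE 0.24, edgeR adjusted p = 7.2e-17). Gfi1b, a repressor needed for red cells and platelets, had 10, 23 and 164 UMIs in embryonic-high cells and 0, 0 and 1 in adult-high cells, a summed ratio of 134 with a counting interval of 23.7 to 5312. Epor, the erythropoietin receptor, was also higher (1.53). In the other direction Lmo2, a bridging partner of the TAL1 complex, had 0 against 51, 4 against 256 and 19 against 509 UMIs, a log2 fold change of −5.87 (SE 0.28). Tal1 and Lmo2, whose proteins act in 1 complex, thus had opposite directions in every library. Hemgn was lower (−1.75), and Klf1, the activator of adult β-globin, was called lower at −0.70 (edgeR adjusted p = 0.0219) but in only 1 of 9 alternative settings, with values of −0.43, −0.60 and −0.59 without the control, Tbx1neo2/neo2 and Foxn11089/1089 libraries. Gata1 was not called (0.62).

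Among 9 factors tied to globin switching only 3 had enough UMIs to be tested. Sox6, known in the mouse as a repressor of Hbb-y in definitive cells, had 0, 2 and 0 UMIs in embryonic-high and 6, 36 and 68 in adult-high cells. The summed ratio was 81.0 in favour of adult-high cells, with a counting interval of 21.9 to 677, and the log2 fold change was −6.11 (SE 0.63, edgeR adjusted p = 1.4e-09). Zbtb7a, a repressor of fetal globin in human cells, was higher in embryonic-high cells at 1.09 and kept its call in 4 of 7 alternatives, losing it at 0.87 without the library labelled Tbx1neo2/neo2. Hmga2 was called lower at −0.85 and kept its call in 2 of 9, with −0.71, −0.34 and −1.45 and no call when the control, Tbx1neo2/neo2 or Foxn11089/1089 library was left out. Bcl11a, the best known of these repressors, was not tested, with 3, 2 and 38 UMIs in embryonic-high and 8, 10 and 23 in adult-high cells. Myb, Lin28b and the 3 Igf2bp genes also fell short of the count filter.

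Enzymes and chaperones of maturing red cells moved in 1 direction. All 9 tested of the 12 listed were lower in embryonic-high cells, from −3.32 to −0.64 with a median of −1.20. Among all genes tested 26.1% were lower. Mkrn1, a ubiquitin ligase, had 288 against 1990, 461 against 5992 and 3351 against 15690 UMIs (log2 fold change of −3.32, SE 0.15). Gpx1, which removes peroxide, was at −2.29, Bpgm, which makes the effector that loosens oxygen from hemoglobin, at −1.38, and Car2 at −0.97. Car1, an enzyme of adult red cells, was not tested but had 0 UMIs in embryonic-high cells of every library against 2, 28 and 24. Of 8 division genes 5 were called lower and none higher, with a median of −0.81, against 26.1% lower and 24.2% higher over all genes. Top2a (−1.31) and Tyms (−2.02) were lower in each library, Mki67 was lower overall (−1.10) but not in the library labelled Tbx1neo2/neo2, and it was at −0.36 and not called without the Foxn11089/1089 library. Cdk1 (−0.76) and Birc5 (−0.72) lost their calls in 7 of 9 alternatives. Birc5 was not lower in the library labelled Tbx1neo2/neo2, where its log2 ratio was 0.37. Cdk1 was at −0.64, −0.44 and −0.71 without the control, Tbx1neo2/neo2 and Foxn11089/1089 libraries, and Birc5 at −0.31 without the control and −0.59 without the Foxn11089/1089 library.

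**Figure D4:**
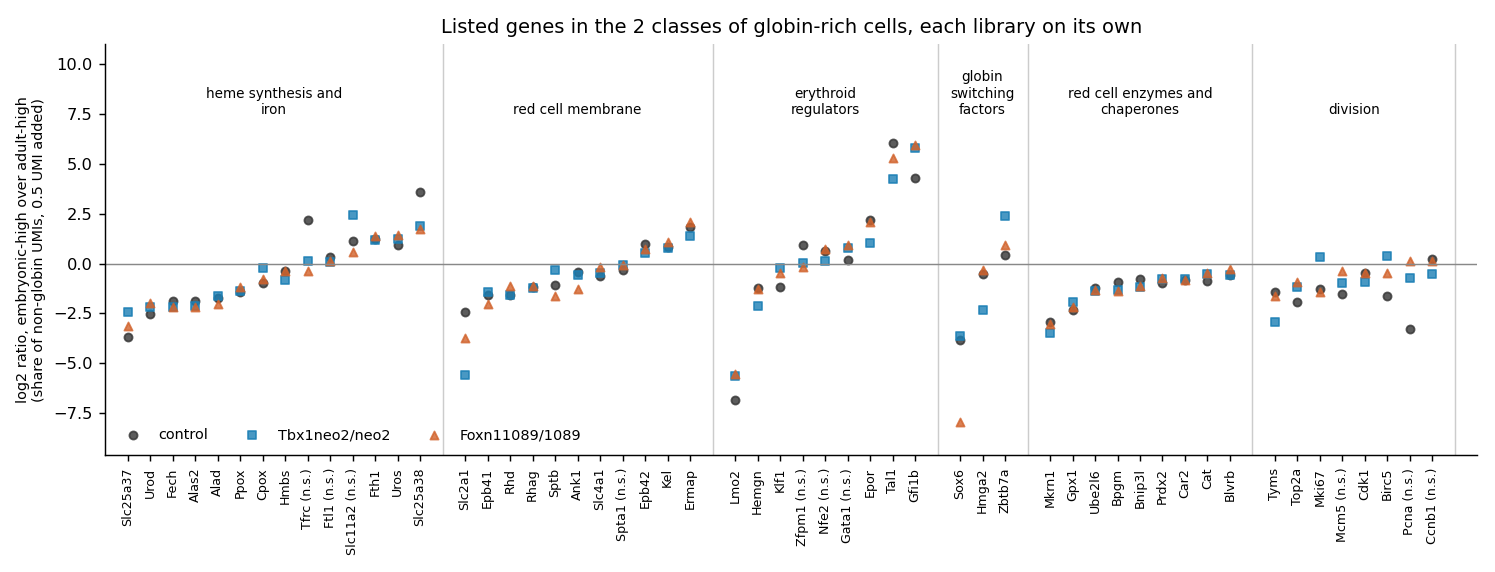
Each column is a gene of the lists and each symbol the log2 ratio of its share of non-globin UMIs, embryonic-high over adult-high cells with 0.5 UMI added, in 1 library; n.s. marks genes that edgeR did not call. Slc2a1, Lmo2 and Sox6 lie below −2 and Tal1 and Gfi1b above 4 in all 3 libraries, and all 9 genes of the enzyme and chaperone list lie below 0.

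Genes outside the lists reached still larger differences. The 10 largest called fold changes with 1 direction in every library and at least 100 UMIs were those of Cmpk2, Trib3, Fam174b, Lmx1a, Gm16062, Gfi1b, Cited4, Fads2, 2900093K20Rik and Tnfrsf23, from 8.18 down to 5.90 on the log2 scale. Cmpk2, a mitochondrial nucleotide kinase, had 5, 30 and 93 UMIs against 0 in adult-high cells of every library, so it was at least 29.0-fold higher, taking 3 UMIs over the group as the limit. Trib3, a pseudokinase of the stress response, had 21, 91 and 512 UMIs against 0, 0 and 1, a summed ratio of 424 with a counting interval of 75.8 to 16767. Fam174b had 91, 359 and 1316 against 2, 2 and 3. Cited4, a transcriptional coactivator, had 89, 146 and 1383 against 1, 0 and 13.

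At the other end stood Isg20, Sowaha, Pla2g16, AI662270, Sox6, Lmo2, Mpp1, Ube2c and F930017D23Rik, from −7.27 to −5.42. Mpp1, a membrane scaffold of red cells, had 8 against 172, 7 against 705 and 65 against 1395 UMIs (−5.57, SE 0.22). Ube2c, a ubiquitin-conjugating enzyme of mitosis, had 16 against 579, 20 against 1380 and 245 against 4495. Each of these was far more frequent in adult-high cells of every library.

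Among all genes outside the globin families, those most like the members in being concentrated in globin-rich cells included known red cell genes such as Alas2 and Slc4a1. Likeness was the smallest over the 3 libraries of the log2 ratio between the level in globin-rich and in all other cells, over 415 genes with at least 100 UMIs in globin-rich cells of each library. Among the highest were Trim10 at 8.26, Alas2 at 8.17, Tspo2, Pdzk1ip1, Hsd3b6, Ube2l6, Rec114 and Slc4a1 at 7.72. The smallest ratio of each of these 8 was that of the Foxn11089/1089 library. Alas2, for example, had ratios of 11.6, 11.7 and 8.17.

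Outside globin-rich cells, globin UMIs formed a background present in most cells. In cells under 10% globin the 7 genes summed to 859 CPM (852 to 865), 371 CPM (368 to 374) and 2170 CPM (2162 to 2177), with medians of 3, 5 and 20 UMIs per cell. Cells with none made up 11.2% and 8.50% in the first 2 libraries and 0.0922% in the Foxn11089/1089 library. Embryonic genes made up 11.9%, 17.4% and 34.0% of globin UMIs in these cells. In all cells that were not globin-rich, those of 10 to 50% globin included, the shares were 20.1%, 19.6% and 43.8%, so the order of the first 2 libraries depended on the limit, while the Foxn11089/1089 library was highest under both. Hbb-bt alone made up 63.4% of the globin UMIs under 10% globin in the control library.

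Cells were then grouped by markers listed for each type, with at least 3 detected and at least 2 more than for any other type. This rule was chosen after the values were seen. Epithelial cells (2148, 953 and 3738, marked by genes such as Epcam and Krt8) held 323, 245 and 1962 CPM of the 7 genes. Mesenchymal cells (1429, 2133 and 3236, marked by Pdgfra, Col1a1 and others) held 242, 294 and 1658 CPM. The 2 types were close to each other within a library, and the Foxn11089/1089 library exceeded the others in both. Embryonic genes made up 21.4%, 21.6% and 30.8% of globin UMIs in epithelial and 24.1%, 21.1% and 34.0% in mesenchymal cells. Hbb-y had 51.6, 49.7 and 547 CPM in epithelial and 45.5, 58.1 and 507 CPM in mesenchymal cells, and Hbb-bh1 at most 4.81 CPM. The few endothelial cells (51, 103 and 97) differed, with 3585, 344 and 2843 CPM of the 7 genes. Embryonic genes made up 61.9%, 41.4% and 47.3% of their globin UMIs. In the control library 1 endothelial cell held 2555 of 2707 such UMIs, and in the Foxn11089/1089 library 1 held 5209 of 12230.

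Hematopoietic cells (1422, 447 and 444, marked by Ptprc, Coro1a, Lck and others) departed from that background mainly in 1 gene. Hbb-bt reached 1413 CPM (1399 to 1427) in the control library and 402 CPM (394 to 410) in the library labelled Tbx1neo2/neo2, against 55.3 and 35.0 CPM in epithelial cells. In the Foxn11089/1089 library it was 248 CPM (239 to 257) against 239 in epithelial cells. Hbb-bs, its nearest relative in sequence, had 78.8, 103 and 573 CPM in hematopoietic and 91.2, 101 and 654 CPM in epithelial cells. An excess of this size was seen for Hbb-bt alone, in 2 of the 3 libraries. The next largest was that of Hba-x in the control library, at 24.8 against 17.0 CPM.

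**Figure D5:**
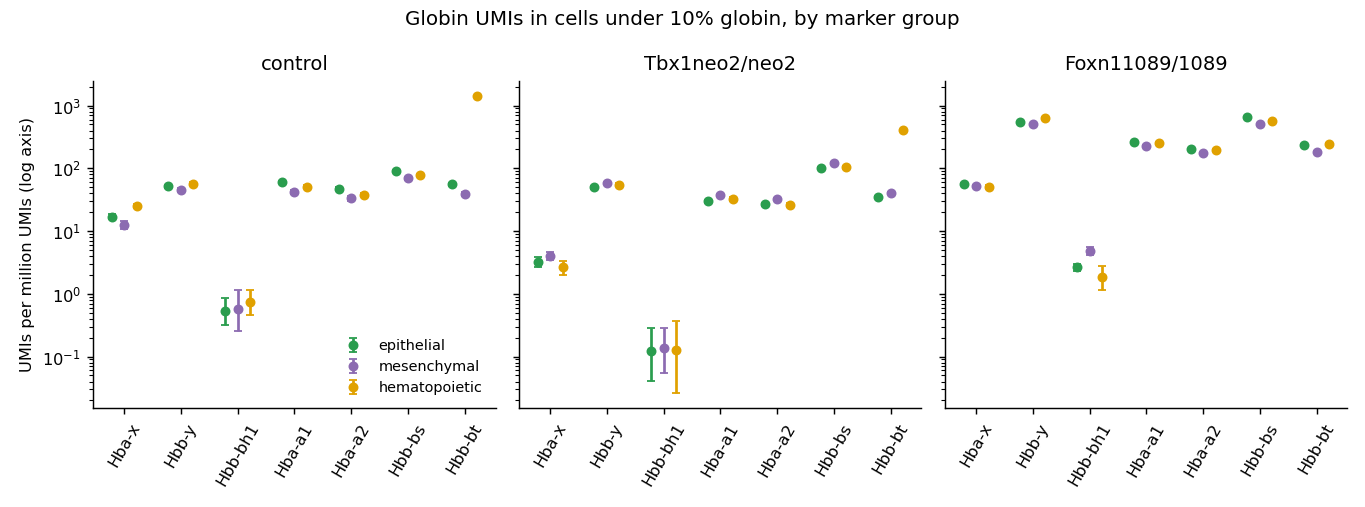
Points give the UMIs of each globin gene per 1000000 UMIs of all genes, on a log axis, in cells under 10% globin of the epithelial, mesenchymal and hematopoietic marker groups, with exact 95% Poisson intervals. Hematopoietic cells stand above the other groups for Hbb-bt in the first 2 panels, at 1413 and 402 CPM. In the third, at 248 CPM, they lie near the epithelial cells, and the groups are further apart for Hbb-bh1, from 1.87 to 4.81 CPM.

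The Hbb-bt to Hbb-bs ratio of these cells was above that of either class of globin-rich cell in the first 2 libraries, and in the Foxn11089/1089 library it was near the 0.430 of adult-high cells. It was 17.9 (17.2 to 18.8), 3.89 (3.72 to 4.07) and 0.433 (0.415 to 0.453) in hematopoietic cells, 0.607, 0.347 and 0.365 in epithelial cells, and at most 1.76 in either class of globin-rich cell. Mesenchymal cells, at 0.560, 0.336 and 0.361, were near the epithelial values. Hbb-bt made up 84.997%, 64.8% and 12.6% of the globin UMIs of hematopoietic cells.

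Many hematopoietic cells held Hbb-bt UMIs, unevenly. The tenth of cells with the most held 53.6%, 55.0% and 53.7% of them, and 1 cell of the Foxn11089/1089 library held 605 of 2926. The number per cell had a median of 5, 4 and 3, an upper quartile of 32, 24.5 and 6 and a maximum of 505, 264 and 605. At least 10 were found in 590 (41.5%), 158 (35.3%) and 55 (12.4%) cells, against 5, 1 and 102 epithelial cells. Thinned to 5000 UMIs per cell, which left out 89, 48 and 50 shallower hematopoietic and 191, 182 and 327 epithelial cells, Hbb-bt was seen in 64.4% (61.8 to 67.0), 47.9% (42.9 to 52.9) and 57.6% (52.6 to 62.5) of hematopoietic cells. The epithelial shares were 15.4%, 15.8% and 50.2%. Hbb-bs by contrast was seen in 27.5%, 40.4% and 87.8% of hematopoietic and 28.3%, 39.8% and 85.1% of epithelial cells. Without thinning the Hbb-bt shares were 79.96%, 84.6% and 90.3% of hematopoietic and 39.5%, 64.7% and 89.2% of epithelial cells, whose median depths were 19902, 56624 and 22804 against 15373.5, 39179 and 19681.5 UMIs.

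Genes of red cells were near their epithelial level in hematopoietic cells. Alas2 had 15, 12 and 22 UMIs over all hematopoietic cells, or 0.556, 0.502 and 1.87 CPM, against 0.714, 0.347 and 2.13 CPM in epithelial cells and 944, 1358 and 825 CPM in globin-rich cells. Slc4a1 had 6, 3 and 10 UMIs. In hematopoietic cells Hbb-y, at 56.6, 54.4 and 642 CPM, and Hba-a1, at 50.6, 32.2 and 257 CPM, were near their epithelial levels.

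Within the hematopoietic group, cells with UMIs of Kit, Tcf7 and Gata3 together, 3 genes used by early thymocytes, numbered 561, 300 and 113. This grouping was made after the values were seen. Their per-cell Hbb-bt level had a median of 467 CPM (quartiles 88.4 and 2042) in the control library, 115 (39.3 and 587) in the library labelled Tbx1neo2/neo2 and 143 (99.6 and 210) in the Foxn11089/1089 library, against 0, 24.6 and 129 CPM in epithelial cells. The upper quartile of the Foxn11089/1089 cells thus lay below those of the other libraries, and 1 of its cells held 605 of the 1473 Hbb-bt UMIs. Cells with C1qb or Csf1r, genes of macrophages, and without Tcf7 numbered 104, 74 and 92 and had a median of 0, 1 and 2 Hbb-bt UMIs. Their summed Hbb-bt was still 569, 117 and 186 CPM, against 55.3, 35.0 and 239 CPM in epithelial cells. The tenth of these cells with the most held 88.0%, 76.1% and 35.8% of it.

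Among hematopoietic cells of at least 10000 UMIs, Hbb-bt was compared between cells with and without a UMI of each of 15 lineage genes, chosen after values were seen. In the first 2 libraries it was higher in cells with Kit, Tcf7, Lyl1, Myb or Mpo. The sums of the Foxn11089/1089 library had the same orders, with overlapping intervals for Mpo. There cells with Kit held 1933 Hbb-bt UMIs, at 255 against 219 CPM, and cells with Tcf7 2061, at 269 against 190 CPM. Of each sum, 1 cell with both genes held 605 UMIs, so these 2 orders rest largely on that cell. Its part in the other orders of its library was not tested. Cells with Mpo, a gene of myeloid progenitors, had 2227 CPM of Hbb-bt against 964 without it in the control library and 625 against 234 in the library labelled Tbx1neo2/neo2, but 247 against 242 in the Foxn11089/1089 library. For Lyl1, a factor of blood progenitors and the earliest thymocytes, the values were 1646 against 907, 465 against 88.1 and 268 against 188 CPM. Hbb-bt was lower in all 3 libraries in cells with Ptcra or Bcl11b, genes of thymocytes. The same held for C1qb and Csf1r, genes of macrophages. With C1qb it was at 341 against 1457, 381 against 406 and 192 against 247 CPM. With Csf1r it was at 1358 against 1449, 266 against 425 and 153 against 256 CPM. With Ptcra, the pre-T cell receptor chain, Hbb-bt stood at 725 against 1597, 244 against 457 and 178 against 246 CPM, and with Bcl11b at 927 against 1635, 319 against 465 and 139 against 254 CPM. For Cd3g the order was the same in the first 2 libraries, at 1104 against 1880 and 363 against 497 CPM. In the third the sums had the opposite order, at 382 against 188 CPM, while the median was 4 Hbb-bt UMIs per cell on both sides. Hbb-bs was there at 983 against 402 CPM, so that order was not particular to Hbb-bt. In the same library Hbb-bs had the order of Hbb-bt for each of the 15 genes but Mpo. It was at 633 against 436 CPM for Kit, 622 against 441 for Lyl1 and 396 against 584 for Bcl11b. For Mpo it was at 370 against 619 CPM. The orders of the Foxn11089/1089 library other than that of Mpo were thus not particular to Hbb-bt. Il2ra and Rag1, also genes of thymocytes, followed no single order. With Il2ra the levels were 1510 against 1404, 433 against 379 and 188 against 258 CPM. With Rag1 they were 1054 against 1564, 426 against 375 and 164 against 250. With Lck they were higher in all 3 libraries, by little in the control, at 1445 against 1436, 423 against 46.8 and 278 against 150. Gata3 and Il7r were the reverse in the control library, at 1438 against 1466 and 1204 against 1644 CPM, of their order in the others. Cells without the gene had the lower median depth for 13 of the 15 genes in each library, and the part of depth was not tested. These are levels in sums of cells of 1 library per genotype, with no replicate.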

How the data were processed

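The authors deposited raw UMI counts per gene and called cell, made with Cell Ranger 3.0.0 on mm10 per the submitters' processing notes. All deposited barcodes were used, without normalization and with no doublet caller, so doublets stayed in. Library totals were 82936619, 137498422 and 204655055 UMIs.

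The members, gene lists and markers were chosen with earlier results of these data known. The scoring rule of the marker groups and the subsets within hematopoietic cells were chosen after the values were seen. Intervals are exact (Clopper-Pearson for shares, Poisson for sums, conditional binomial for ratios) at 95%. Levels are UMIs per 1000000 UMIs of the group (CPM), or of its non-globin UMIs between the classes. UMIs of a 3′ library count molecules, so genes were compared without scaling by length. Thinning drew 5000 UMIs per cell, once.

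The contrast of classes used edgeR 4.0.16 (R 4.3.3) with TMM, filterByExpr and a library block, and DESeq2 1.42.0 as an alternative, with Benjamini-Hochberg adjustment at 0.05. The p-values measure the spread between 3 libraries of different genotype. The script was tested on simulated data. Named genes were the members, the fixed lists, and the 10 largest and 10 smallest called fold changes with 1 sign in each library and at least 100 UMIs. Some genes that met these rules are not reported here by name, though counts and medians of lists include them. Ahsp, a listed gene and red cell marker, was not analysed here. Coordinates are from GENCODE M21 and promoter sequences from RefSeq on GRCm38.p6, which held 6 of the 7 members. Python 3.11.15, numpy 2.4.6, scipy 1.17.1 and pandas 2.3.3 were used. Alternatives changed the globin limit, the cell filters, the weighting of cells, the scaling, the count filter, the block and the libraries.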

Additional observations from a re-analysis of the deposited data

How the results depend on the processing

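With a globin limit of 80%, globin-rich cells made up 6.71%, 5.94% and 17.1% of the libraries (control, Tbx1neo2/neo2, Foxn11089/1089), and embryonic genes took 13.2%, 24.0% and 38.2% of their globin UMIs; with 30% the embryonic shares were 14.4%, 24.8% and 39.9%, and the Foxn11089/1089 library had 19.8% globin-rich cells. Keeping cells of at least 200 genes and under 20% mitochondrial UMIs gave 5.75% globin-rich cells in the control and 17.4% in the Foxn11089/1089 library, embryonic shares of 16.2%, 25.3% and 40.7%, embryonic-high shares of 53.7% and 48.0% in the control and Foxn11089/1089 libraries, and 2004 and 19437 CPM of globin in their other cells. Without cells that carried other markers the embryonic shares were 14.1%, 26.1% and 39.2%, and with each cell weighted equally 19.6%, 21.7% and 30.9%. The globin level of all cells that were not globin-rich was 2054, 1902 and 19381 CPM; it fell to 859, 371 and 2170 CPM below 10% globin, where the embryonic share was 11.9%, 17.4% and 34.0%, and with at least 2000 UMIs it was 1919 CPM in the control, with an embryonic share of 18.3%, and 19461 CPM in the Foxn11089/1089 library. The order of the libraries in the embryonic share of globin-rich cells held under each of these alternatives.

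The number of genes called between the classes was 941 without the replicate block, and between 1035 and 1703 with 1 library left out, lowest without the Foxn11089/1089 library, which held the most cells. No paired analysis was possible because each genotype had 1 library, other than the library block of the class contrast. Over 72 named genes and 9 alternatives no called fold change was reversed, while 4 that were not called changed sign: Tfrc (−0.13, up to 0.63), Zfpm1 (−0.17, up to 0.31), Ccnb1 (−0.19, up to 0.19) and Ftl1 (0.01, down to −0.01); 59 calls in 18 genes were lost and 2 gained, the latter Slc11a2 without cells with other markers and Nfe2 without the library labelled Tbx1neo2/neo2. Depth limits the switching factors, of which 3 of 9 had enough UMIs to be tested, and the cause of the shifts was not tested.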
